A study of Mus musculus with 12 samples.

Results

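The type I interferon response genes described here are 36 mouse genes whose transcription is known to rise when a cell receives type I interferon, or which carry that response: nucleic acid sensors, transcription factors, the ISG15 and ADP-ribose system, the IFIT and OAS families and other antiviral effectors. They were chosen by name from knowledge of the pathway, with earlier results of these data known, though no measured value enters the rule. All 36 were among the 54532 genes of the deposited table, and all 36 were among the 15122 genes that passed the filter on low counts and were tested. The cells were C2C12, an established line of mouse myoblasts that can fuse into myotubes, so the 12 libraries came from 1 line, with 3 biological replicates in each of 4 groups. In siCONTROL the cells received a control siRNA, in siKEAP1 one that targets Keap1 mRNA, in siCCNF one that targets Ccnf mRNA, and in siKEAP1/siCCNF both targeting siRNAs, with siRNA at 30 nM for 48 h, and poly(A) RNA was sequenced. The sources used here do not say whether the siKEAP1/siCCNF cells received 30 nM in all or of either siRNA, nor which Ccnf siRNA was used. KEAP1 is the substrate adaptor by which the ubiquitin ligase CUL3 limits the oxidative stress factor NRF2, and CCNF, or cyclin F, is a substrate adaptor of the ligase CUL1. The depletions are transient and all 4 groups received siRNA, so the level of these genes in cells without siRNA was not analysed here. The comparisons ask how the depletion of KEAP1, of CCNF or of both altered the transcriptome of these myoblasts, and whether the effect of siKEAP1 was the same with and without siCCNF.

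Interferon response genes lie at the end of a relay that starts with foreign nucleic acid. Sensors such as RIG-I and MDA5 in the cytosol, or cGAS through STING, lead to phosphorylation of interferon regulatory factors, which switch on interferon genes. Secreted interferon binds the receptor pair IFNAR1 and IFNAR2, the kinases JAK1 and TYK2 phosphorylate STAT2, and STAT2 joins IRF9 in a complex that binds the interferon-stimulated response element (ISRE) in the promoters of the response genes. Most cell types, myoblasts included, can mount this response.

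Promoter sequence was available for 26 of the 36 members, in the RefSeq table for build GRCm38.p6. The ISRE letters GAAANNGAAA, or TTTCNNTTTC on the other strand, lay between 250 bases before and 50 bases after the start of 13 of those 26 genes (50%). The same letters were found for 1079 of all 27025 genes in that table (3.99%) and for 387 of the 10546 tested genes it holds (3.67%). A match describes letters in a window and not a bound site, and a window without a match says only that these letters are not in it. The 250 bases before the RefSeq start are printed for 7 members, 5′ to 3′ on the strand of the gene. The ISRE letters are in capitals, with overlapping matches joined. RefSeq starts can differ from the deposited coordinates. The windows of Gbp2, with its match, and of Lgals3bp reach into the gene as deposited, and those of Oas3 and Ifi35 by a few bases. Oas3, Gbp2, Ifi35 and Lgals3bp are shown because they are the members with a window that passed the test against siCONTROL after siKEAP1, after siCCNF and after both siRNAs, Isg15 as the namesake of the class with 3 matches, and Ifit3 and Ifit3b because they are near copies of each other.
Isg15: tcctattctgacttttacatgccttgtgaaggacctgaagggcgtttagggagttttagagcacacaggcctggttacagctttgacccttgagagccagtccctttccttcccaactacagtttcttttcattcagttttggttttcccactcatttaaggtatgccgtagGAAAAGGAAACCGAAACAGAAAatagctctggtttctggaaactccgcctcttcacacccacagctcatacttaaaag
Oas3: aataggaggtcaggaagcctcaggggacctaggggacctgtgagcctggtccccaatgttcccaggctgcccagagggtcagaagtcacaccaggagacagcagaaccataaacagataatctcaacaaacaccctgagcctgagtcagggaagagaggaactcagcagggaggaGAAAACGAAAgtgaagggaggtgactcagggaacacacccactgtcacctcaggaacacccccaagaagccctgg
Gbp2: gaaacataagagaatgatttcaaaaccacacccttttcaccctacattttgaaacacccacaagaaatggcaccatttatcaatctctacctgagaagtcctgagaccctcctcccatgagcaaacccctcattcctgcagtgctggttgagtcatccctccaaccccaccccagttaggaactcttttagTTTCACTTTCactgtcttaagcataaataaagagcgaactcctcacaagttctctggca
Ifi35: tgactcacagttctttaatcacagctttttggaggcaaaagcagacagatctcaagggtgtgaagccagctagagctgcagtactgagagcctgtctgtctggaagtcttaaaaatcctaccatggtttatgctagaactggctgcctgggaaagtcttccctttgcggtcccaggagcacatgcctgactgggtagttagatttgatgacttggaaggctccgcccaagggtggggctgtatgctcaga
Lgals3bp: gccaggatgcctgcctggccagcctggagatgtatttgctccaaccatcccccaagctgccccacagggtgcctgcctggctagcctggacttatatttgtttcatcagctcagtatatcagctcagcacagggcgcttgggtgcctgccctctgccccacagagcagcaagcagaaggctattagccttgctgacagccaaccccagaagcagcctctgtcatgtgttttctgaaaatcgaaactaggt
Ifit3: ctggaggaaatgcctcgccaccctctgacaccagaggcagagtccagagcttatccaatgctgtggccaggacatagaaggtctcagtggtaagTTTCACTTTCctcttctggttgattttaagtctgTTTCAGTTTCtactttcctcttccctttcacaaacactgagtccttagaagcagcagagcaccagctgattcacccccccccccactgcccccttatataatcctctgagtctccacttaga
Ifit3b: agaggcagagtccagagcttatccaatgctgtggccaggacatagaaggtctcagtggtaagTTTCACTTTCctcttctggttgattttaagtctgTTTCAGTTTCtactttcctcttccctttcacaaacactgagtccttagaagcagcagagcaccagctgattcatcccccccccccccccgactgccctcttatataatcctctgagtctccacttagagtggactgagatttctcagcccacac
The Isg15 window (chr4:156200819-156201068, minus strand) held 3 overlapping matches that begin 78, 72 and 66 bases before the start. Single matches began 75 bases before the start of Oas3 (chr5:120777660-120777909, minus strand) and 59 bases before that of Gbp2 (chr3:142620413-142620662, plus strand), the latter on the opposite strand. The windows of Ifi35 (chr11:101448162-101448411, plus strand) and Lgals3bp (chr11:118401960-118402209, minus strand) held none. Ifit3 (chr19:34583279-34583528, plus strand) had matches at 156 and 122 bases before its start, and Ifit3b (chr19:34607707-34607956, plus strand) at 188 and 154, all on the opposite strand. These windows shared an unbroken run of 169 bases, whereas the longest run shared by the windows of Isg15 and Oas3 was 9 bases.

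Libraries held between 18464209 and 37743198 gene counts. Keap1 fell from 87.8 ± 3.05 counts scaled to library size (CPM; mean ± SD, n = 3) in siCONTROL to 12.6 ± 0.279 after siKEAP1 and 24.1 ± 2.56 after siKEAP1/siCCNF, with 85.1 ± 4.35 after siCCNF. Ccnf fell from 81.1 ± 3.99 to 20.5 ± 0.778 after siCCNF and 24.5 ± 1.01 after siKEAP1/siCCNF, and stood at 59.4 ± 4.83 after siKEAP1. Both targeted transcripts were thus lower in the groups labelled with their siRNA, but not to the same depth: in edgeR, Keap1 was 1.91-fold higher after siKEAP1/siCCNF than after siKEAP1 (adjusted p = 7.87e-07), and Ccnf was also called lower after siKEAP1 (-0.45, adjusted p = 0.000236).

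One library stood apart for the interferon response genes. Replicate 1 of siCONTROL had the lowest CPM of all 12 libraries for all 36 members, and 32 of the 36 were more than 2-fold below the mean of the other 2 siCONTROL libraries. Its members summed to 509 CPM, against 1108 and 1173 in siCONTROL replicates 2 and 3, and their median difference from those libraries was -1.80 on the log2 scale. Among all tested genes, 4.07% were more than 2-fold lower in that library. It also differed in other ways. Myog, the myogenic factor that marks entry into differentiation, was at 74.6 CPM there and at 32.0 and 29.3 CPM in siCONTROL replicates 2 and 3, and the summed CPM of 10 genes of differentiating myocytes was 137 against 58.2 and 57.9. Across genes, its deviation from the group mean correlated with log gene length at r = -0.305. With the length trend removed, the members' median difference from the other siCONTROL libraries was -1.68. A near correlation with length, r = -0.276, was found for siKEAP1/siCCNF replicate 3. Its deviations correlated with those of siCONTROL replicate 1 at r = 0.390, while its members summed to 1560 CPM. The part of differentiation state or length in the low member values of siCONTROL replicate 1 was not tested. Counts and called estimates against siCONTROL are therefore given with and without siCONTROL replicate 1. The fit without it keeps replicate 1 of each depleted group, which also had the lowest mean log2 CPM of the members in its group. It therefore does not isolate the part of this library.

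The other groups spread too. Replicate 1 of siKEAP1 was the lowest of its group for all 36 members, which summed to 1093 CPM there and to 1851 and 1557 CPM in replicates 2 and 3. Replicate 2 of siCCNF was the highest of its group for 35 members, with sums of 1457, 2114 and 1613 CPM in replicates 1, 2 and 3. The siKEAP1/siCCNF libraries were closest together, at 1501, 1741 and 1560 CPM. The highest of the 12 values lay in siCCNF replicate 2 for 19 members and in siKEAP1 replicate 2 for 15, with 1 more in siKEAP1 replicate 3 and 1 in siKEAP1/siCCNF replicate 3.

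Members moved together from library to library. After each group mean was subtracted, the mean Pearson correlation of log2 CPM between pairs of members was 0.898 over the 12 libraries, with a median of 0.957 and a lowest value of 0.119, and it was 0.825 over the 9 libraries without siCONTROL. Over all pairs of the 15122 tested genes the mean was 0.000394. The points share libraries and are given as a description. Ifi35 (mean r with the other members 0.393) and Ifi27 (0.545) moved least with the rest, followed by Ifit2 (0.807) and Herc6 (0.870).

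Against siCONTROL, between 13 and 16 of the 36 members were called higher after each depletion and none was called lower. A member was called when edgeR gave it an adjusted p below 0.05 in the quasi-likelihood test, with the adjustment over all 15122 genes. After siKEAP1, 14 of 36 members rose and 0 fell, where 20.2% of all tested genes were called higher and 20.2% lower. After siCCNF, 16 rose and 0 fell, beside 22.4% higher and 25.4% lower among all genes. After siKEAP1/siCCNF, 13 rose and 0 fell, beside 20.6% and 23.6%. The median log2 fold change of the 36 was 0.88, 0.90 and 0.75 in these contrasts, and that of all tested genes -0.01, 0.01 and 0.01. Estimates above 0 were found for 36, 34 and 35 members. All 3 libraries lay above all siCONTROL libraries for 15 members after siKEAP1 (25.8% of all genes), for 19 after siCCNF (27.8%) and for 20 after siKEAP1/siCCNF (23.2%). At an unadjusted p below 0.05 in edgeR, 20, 19 and 16 members passed, each of them higher, beside 23.5%, 25.9% and 24.4% of all genes that passed as higher. The counts of calls depended on the low-count filter, without which 4, 7 and 5 members were called higher (10.3%, 11.4% and 10.3% of all genes), and on the replicate number as a block, with which 25, 27 and 25 were (3024 of the 15122 genes, 22.1% and 20.2%). No alternative run, DESeq2 and limma included, called a member lower in these contrasts.

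Without siCONTROL replicate 1 the medians fell to 0.50, 0.50 and 0.39, and 34, 33 and 31 members stayed above 0. The counts of members called higher were then 8 after siKEAP1 (19.7% of all genes), 14 after siCCNF (22.3%) and 8 after siKEAP1/siCCNF (20.8%), and each of these was also called with the library. The siKEAP1 count was 5 without siKEAP1 replicate 2 and 8 without siKEAP1 replicate 3, the siCCNF count was 9 without siCCNF replicate 2, and the siKEAP1/siCCNF count was 8 without siKEAP1/siCCNF replicate 2 and 7 without its replicate 3. In all 12 fits that each left out 1 library, 4, 9 and 6 members kept their call after siKEAP1, siCCNF and siKEAP1/siCCNF. For the fits without a library other than siCONTROL replicate 1, and for calls kept in all 12, no share of all tested genes is given. Those counts therefore do not compare the members with other genes.

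**Figure D1:**
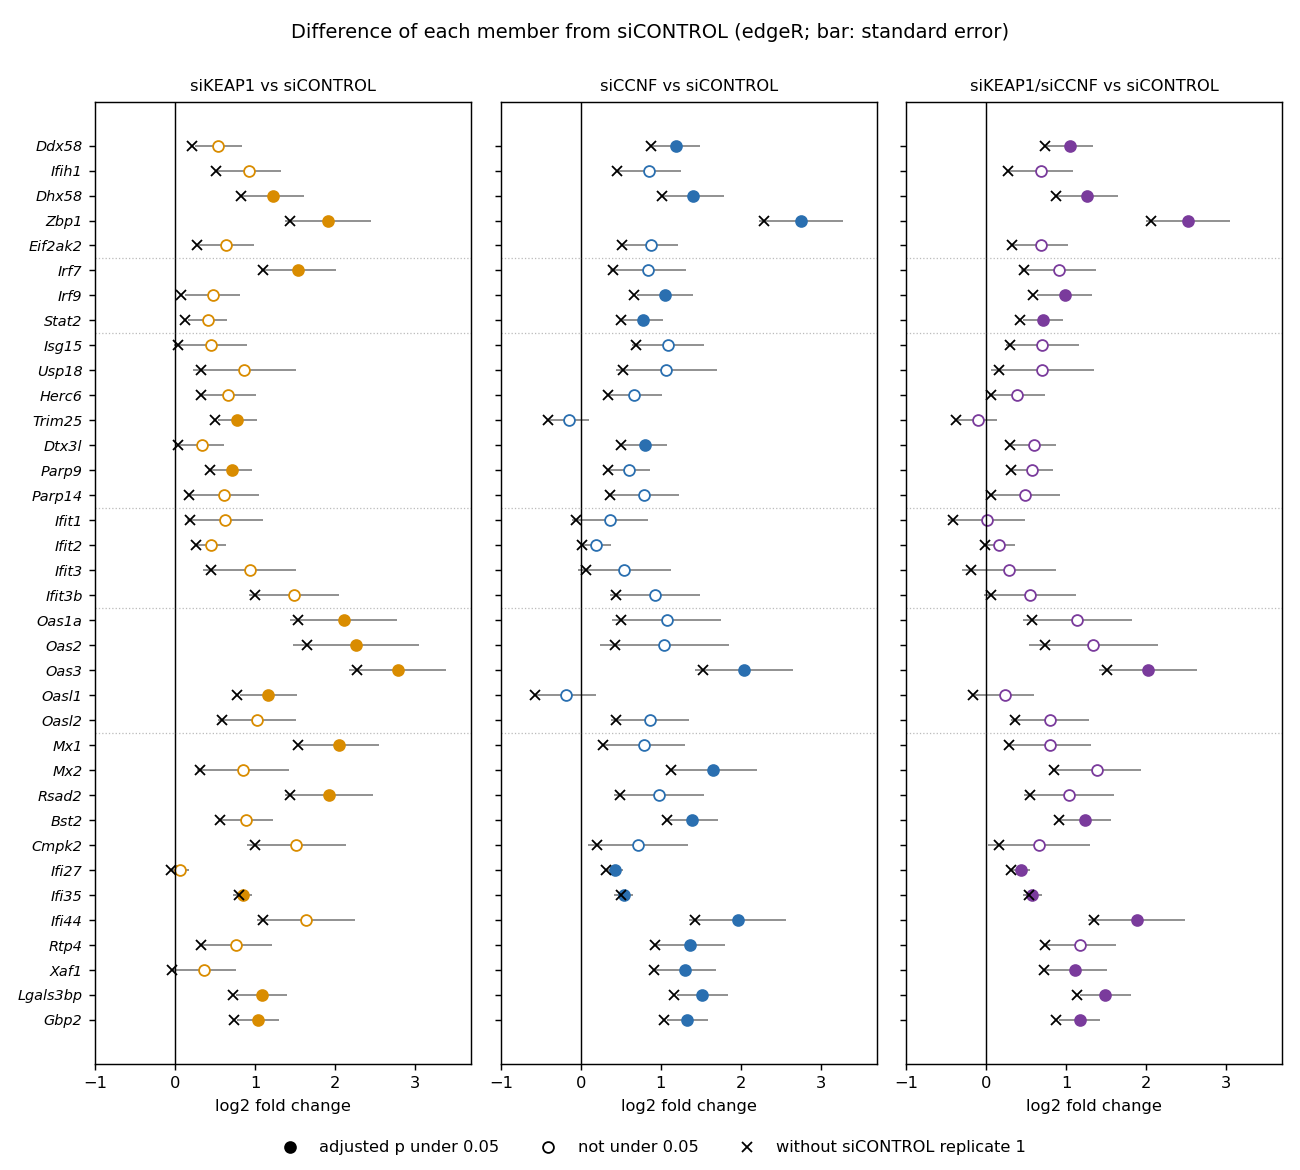
Log2 fold change of each member against siCONTROL after siKEAP1, siCCNF and siKEAP1/siCCNF, with bars of 1 standard error; filled points passed the test, open points did not, and crosses give the estimate without siCONTROL replicate 1. The estimates run from -0.19 to 2.78, only 3 lie below 0 (Trim25 in both groups with siCCNF and Oasl1 after siCCNF), and every cross lies to the left of its point.

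The 3 contrasts share the siCONTROL libraries, so their calls are not separate evidence. Called in all 3 were 6 members, Dhx58, Zbp1, Oas3, Ifi35, Lgals3bp and Gbp2. A further 7 (Ddx58, Irf9, Stat2, Bst2, Ifi27, Ifi44 and Xaf1) were called in both contrasts with siCCNF, and all 13 calls after siKEAP1/siCCNF were also calls after siCCNF. Another 8 were called after siKEAP1 alone (Irf7, Trim25, Parp9, Oas1a, Oas2, Oasl1, Mx1 and Rsad2) and 3 after siCCNF alone (Dtx3l, Mx2 and Rtp4). No call was made for the other 12 in this fit. With the replicate block, more members were called after siCCNF than are named here over all contrasts. Some of these 12 were therefore called with the block. Calls of single members below are those of the fit without the block. Beside the calls by role group below, 20.2%, 22.4% and 20.6% of all tested genes were called higher after siKEAP1, siCCNF and siKEAP1/siCCNF. Without siCONTROL replicate 1, these shares were 19.7%, 22.3% and 20.8%. Each role group holds few members, so its count of calls alone does not set it apart from other genes. In what follows, a log2 fold change carries its standard error after the ± sign, brackets after a call against siCONTROL also hold the estimate without siCONTROL replicate 1, and values of the members in each library are CPM in the order of replicates 1, 2 and 3.

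The 5 nucleic acid sensors had medians of 0.92, 1.19 and 1.04 after siKEAP1, siCCNF and siKEAP1/siCCNF, with 2, 3 and 3 called. Without siCONTROL replicate 1 these medians were 0.51, 0.88 and 0.73, with 0, 3 and 2 called. Ddx58, which encodes the RNA sensor RIG-I, stood at 32.9, 77.4 and 78.8 CPM in the siCONTROL libraries, 68.0, 111 and 95.2 after siKEAP1, 119, 172 and 142 after siCCNF and 131, 145 and 114 after siKEAP1/siCCNF. The siCCNF and siKEAP1/siCCNF libraries lay above all siCONTROL libraries, while siKEAP1 replicate 1 fell below siCONTROL replicates 2 and 3. By edgeR, Ddx58 rose by 1.19 ± 0.29 (adjusted p = 0.00595, 0.88 without siCONTROL replicate 1) after siCCNF and by 1.04 ± 0.29 (adjusted p = 0.0133, 0.73 without siCONTROL replicate 1) after siKEAP1/siCCNF, and its siKEAP1 estimate was 0.54 ± 0.29 (adjusted p = 0.173). Both calls held in all 12 leave-one-out fits. Dhx58, which encodes LGP2, a regulator of RIG-I and MDA5, was at 4.62, 13.8 and 15.2 CPM in the siCONTROL libraries, 17.2, 34.9 and 25.5 after siKEAP1, 22.2, 40.2 and 26.1 after siCCNF and 25.2, 29.1 and 25.4 after siKEAP1/siCCNF. All 9 depleted libraries exceeded the 3 siCONTROL libraries. It rose by 1.22 ± 0.39 (adjusted p = 0.0274, 0.83 without siCONTROL replicate 1), 1.40 ± 0.39 (adjusted p = 0.0115, 1.02 without siCONTROL replicate 1) and 1.26 ± 0.39 (adjusted p = 0.0218, 0.87 without siCONTROL replicate 1) in edgeR after siKEAP1, siCCNF and siKEAP1/siCCNF. The siCCNF call passed in every leave-one-out fit, the siKEAP1 call was lost without siCONTROL replicate 1, siKEAP1 replicate 2 or 3 or siKEAP1/siCCNF replicate 3 (adjusted p up to 0.0952), and the siKEAP1/siCCNF call was lost without siCONTROL replicate 1 or siKEAP1/siCCNF replicate 3 (adjusted p up to 0.0552).

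Zbp1 encodes a sensor of nucleic acid in the Z form that can start necroptosis. It was found at 0.717, 2.93 and 3.52 CPM in the siCONTROL libraries, 4.55, 12.4 and 9.34 after siKEAP1, 10.5, 23.9 and 13.5 after siCCNF and 9.80, 16.5 and 14.1 after siKEAP1/siCCNF. Again the 9 depleted libraries lay above siCONTROL, and the siCCNF libraries held the highest value. In edgeR, Zbp1 rose by 1.91 ± 0.54 (adjusted p = 0.0148, 1.44 without siCONTROL replicate 1), 2.75 ± 0.52 (adjusted p = 0.00118, 2.29 without siCONTROL replicate 1) and 2.52 ± 0.53 (adjusted p = 0.00241, 2.05 without siCONTROL replicate 1), a 6.74-fold difference after siCCNF. Only the siKEAP1 call was lost in leave-one-out fits, without siCONTROL replicate 1 (adjusted p up to 0.0659). The other sensors passed in no contrast against siCONTROL. Ifih1, which encodes MDA5, had estimates of 0.92, 0.86 and 0.68, and Eif2ak2, which encodes the kinase PKR that halts translation on double-stranded RNA, of 0.64, 0.88 and 0.68, with adjusted p in edgeR between 0.0549 and 0.19; limma called Eif2ak2 after siCCNF.

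The transcription factors that drive the response had medians of 0.47, 0.84 and 0.90, with 1, 2 and 2 of 3 called. Leaving out siCONTROL replicate 1 brought the medians to 0.12, 0.51 and 0.46 and the calls to 0, 2 and 1. Irf7, which amplifies interferon production, read 4.17, 16.3 and 18.1 CPM in the siCONTROL libraries, 21.0, 53.8 and 36.4 after siKEAP1, 17.4, 31.7 and 19.8 after siCCNF and 19.1, 27.8 and 24.6 after siKEAP1/siCCNF. The siKEAP1 libraries were all above siCONTROL, and the siCCNF libraries overlapped it. Irf7 rose by 1.54 ± 0.47 (adjusted p = 0.0226, 1.10 without siCONTROL replicate 1) after siKEAP1 in edgeR, whereas the estimates with siCCNF and with both siRNAs were 0.84 ± 0.47 (adjusted p = 0.167) and 0.90 ± 0.47 (adjusted p = 0.148). That call was lost without siCONTROL replicate 1 or siKEAP1 replicate 2 (adjusted p up to 0.081). Irf7 overlaps Phrf1 on the opposite strand, and since no strand setting of the counting is given in the sources used here, their reads may not be fully separate.

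Irf9, the DNA-binding partner of STAT2, was at 12, 36.6 and 40.8 CPM in the siCONTROL libraries, 30.6, 47.8 and 44.5 after siKEAP1, 53.3, 74.8 and 57.0 after siCCNF and 53.0, 60.6 and 61.7 after siKEAP1/siCCNF. Its siCCNF and siKEAP1/siCCNF libraries lay above siCONTROL, and the siKEAP1 libraries were mixed with it. By edgeR it rose by 1.05 ± 0.35 (adjusted p = 0.027, 0.67 without siCONTROL replicate 1) and 0.98 ± 0.35 (adjusted p = 0.0407, 0.59 without siCONTROL replicate 1), with a siKEAP1 estimate of 0.47 ± 0.35 (adjusted p = 0.323). The siCCNF call was lost without siCCNF replicate 2 or siKEAP1/siCCNF replicate 3 (adjusted p up to 0.0698) and the siKEAP1/siCCNF call without siKEAP1 replicate 3, siCCNF replicate 3 or siKEAP1/siCCNF replicate 1, 2 or 3 (adjusted p up to 0.113). Irf9 overlaps Rnf31 on the same strand, which reached 47.8 CPM, so reads may be shared. Stat2 itself read 21.1, 41.8 and 43.9 CPM in the siCONTROL libraries, 36.1, 54.9 and 49.7 after siKEAP1, 49.6, 68.9 and 64.4 after siCCNF and 54.6, 66.4 and 52.2 after siKEAP1/siCCNF. The order was the same as for Irf9, with both siCCNF groups above siCONTROL. Stat2 rose by 0.78 ± 0.25 (adjusted p = 0.0221, 0.51 without siCONTROL replicate 1) and 0.70 ± 0.25 (adjusted p = 0.0383, 0.42 without siCONTROL replicate 1) in edgeR. The siCCNF call was lost without siCCNF replicate 2 or 3 (adjusted p up to 0.0623) and the siKEAP1/siCCNF call without siCONTROL replicate 1, siKEAP1 replicate 3, siCCNF replicate 3 or siKEAP1/siCCNF replicate 1, 2 or 3 (adjusted p up to 0.112).

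The ISG15, ubiquitin and ADP-ribose system comprised 7 members with medians of 0.66, 0.78 and 0.57 and with 2, 1 and 0 called (by edgeR, 1 reached an unadjusted p below 0.05 after siKEAP1/siCCNF; Parp9 was called there by DESeq2). With siCONTROL replicate 1 left out, the medians were 0.32, 0.36 and 0.16 and the calls 1, 0 and 0. Trim25, a ubiquitin ligase that acts on RIG-I, stood at 31.4, 61.7 and 64.5 CPM in the siCONTROL libraries, 72.7, 103 and 93.6 after siKEAP1, 39.9, 52.7 and 50.2 after siCCNF and 48.6, 57.0 and 39.9 after siKEAP1/siCCNF. Only the siKEAP1 libraries lay wholly above siCONTROL. Trim25 rose by 0.78 ± 0.24 (adjusted p = 0.0242, 0.50 without siCONTROL replicate 1) after siKEAP1 in edgeR, while its estimates were -0.14 ± 0.24 (adjusted p = 0.658) after siCCNF and -0.11 ± 0.24 (adjusted p = 0.741) after siKEAP1/siCCNF. The call was lost without siKEAP1 replicate 2 or 3 (adjusted p up to 0.0807).

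Parp9 and Dtx3l lie next to each other on chromosome 16, on opposite strands with overlapping ends, and encode partners in a complex of ADP-ribosylation and ubiquitin transfer. Parp9 read 11.6, 21.1 and 24.7 CPM in the siCONTROL libraries, 24.9, 36.6 and 31.7 after siKEAP1, 24.1, 37.4 and 25.8 after siCCNF and 26.8, 32.2 and 26.1 after siKEAP1/siCCNF. The siKEAP1 values began just above the highest siCONTROL value. It rose by 0.71 ± 0.25 (adjusted p = 0.0439, 0.43 without siCONTROL replicate 1) after siKEAP1 in edgeR, but the call was lost without siCONTROL replicate 1 or 2, siKEAP1 replicate 2 or 3, siCCNF replicate 3 or siKEAP1/siCCNF replicate 1 or 3 (adjusted p up to 0.148). Dtx3l read 13.1, 28.4 and 29.3 CPM in the siCONTROL libraries, 22.4, 35.8 and 30.7 after siKEAP1, 33.5, 51.0 and 38.6 after siCCNF and 34.2, 40.7 and 31.5 after siKEAP1/siCCNF. Here the siCCNF libraries were the ones wholly above siCONTROL, together with those of siKEAP1/siCCNF. Dtx3l rose by 0.80 ± 0.28 (adjusted p = 0.0325, 0.50 without siCONTROL replicate 1) after siCCNF in edgeR and lost this call without siCONTROL replicate 1 or siCCNF replicate 2 or 3 (adjusted p up to 0.107).

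Isg15, the ubiquitin-like modifier that gives the class its name, was at 10.5, 36 and 37.4 CPM in the siCONTROL libraries, 20.1, 55.0 and 38.2 after siKEAP1, 47.5, 81.2 and 49.4 after siCCNF and 36.6, 52.1 and 46.7 after siKEAP1/siCCNF. Its siCCNF libraries lay above siCONTROL, but the spread within groups was wide. None of its estimates, 0.44 ± 0.46 (adjusted p = 0.483), 1.09 ± 0.46 (adjusted p = 0.0715) and 0.70 ± 0.46 (adjusted p = 0.244), passed in edgeR; limma on log2(FPKM + 0.1) called it after siCCNF. Usp18, the protease that removes ISG15, went from 0.807, 8.30 and 8.81 CPM in siCONTROL to 8.38, 18.9 and 10.2 after siCCNF, with overlap. Estimates for Usp18, for Herc6, a ligase of ISG15 in the mouse, and for Parp14, a mono-ADP-ribosyl transferase, ran from 0.38 (Herc6 after siKEAP1/siCCNF) to 1.07 (Usp18 after siCCNF).

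The IFIT proteins bind the ends of foreign RNA. Their 4 genes lie together at chr19:34550694-34650009, and none was called in any contrast against siCONTROL: in edgeR 2 reached an unadjusted p below 0.05 after siKEAP1 and 0 after siCCNF or siKEAP1/siCCNF, and limma called Ifit3b after siKEAP1. Medians were 0.78, 0.46 and 0.22. They depended on siCONTROL replicate 1, without which they were 0.36, 0.042 and -0.10, so that the last turned its direction and 1 of the 4 estimates after siKEAP1/siCCNF stayed above 0. Ifit1 stood at 13.5, 54.6 and 53.6 CPM in the siCONTROL libraries, 37.0, 88.9 and 60.5 after siKEAP1, 37.9, 74.9 and 44.4 after siCCNF and 38.8, 48.1 and 34.4 after siKEAP1/siCCNF. Its groups overlapped, and after siKEAP1/siCCNF all 3 libraries lay below siCONTROL replicates 2 and 3. The estimates in edgeR were 0.62 ± 0.48 (adjusted p = 0.335), 0.37 ± 0.47 (adjusted p = 0.551) and 0.0026 ± 0.48 (adjusted p = 0.997). Ifit2 varied least of the 4, with 25.9, 37.1 and 40.4 CPM in siCONTROL and 40.0, 54.0 and 46.3 after siKEAP1. Ifit3 and Ifit3b had siKEAP1 estimates of 0.93 ± 0.58 (adjusted p = 0.234) and 1.48 ± 0.56 (adjusted p = 0.0564) in edgeR. As near copies, as their promoters above also are, they could exchange reads in the counting, and their separate values are uncertain.

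The OAS enzymes make short oligoadenylates that activate the nuclease RNase L. This family showed the highest median of the role groups after siKEAP1, 2.10, with 4 of 5 members called. After siCCNF and siKEAP1/siCCNF its medians were 1.04 and 1.14, with 1 call each. Of all tested genes, 20.2%, 22.4% and 20.6% were called higher in these contrasts. The medians without siCONTROL replicate 1 were 1.54, 0.44 and 0.57, with 2, 0 and 0 called. Oas3 (chr5:120753098-120777661) read 0.269, 1.41 and 1.97 CPM in the siCONTROL libraries, 4.13, 11.7 and 8.86 after siKEAP1, 2.79, 8.05 and 4.24 after siCCNF and 3.49, 6.62 and 4.39 after siKEAP1/siCCNF. All 9 depleted libraries were above siCONTROL, and siKEAP1 replicates 2 and 3 held the highest values. Oas3 rose by 2.78 ± 0.60 (adjusted p = 0.00313, 2.27 without siCONTROL replicate 1), 2.04 ± 0.61 (adjusted p = 0.0167, 1.53 without siCONTROL replicate 1) and 2.02 ± 0.62 (adjusted p = 0.0196, 1.51 without siCONTROL replicate 1) in edgeR, which is 6.88-fold after siKEAP1. The siKEAP1 call held throughout, and the other calls were lost without siCONTROL replicate 1 or siCCNF replicate 2 (adjusted p up to 0.0705) and without siCONTROL replicate 1 or siKEAP1/siCCNF replicate 2 (adjusted p up to 0.0784). Its level was low: per length, siCONTROL held 0.171 ± 0.122 FPKM (fragments scaled to transcript length and library size, mean ± SD, n = 3), the lowest of the 36.

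Oas1a was at 0.179, 2.39 and 2.26 CPM in the siCONTROL libraries, 2.79, 8.59 and 8.90 after siKEAP1, 2.34, 5.48 and 2.33 after siCCNF and 2.38, 4.87 and 3.03 after siKEAP1/siCCNF. The siKEAP1 libraries exceeded siCONTROL and the other groups overlapped it. By edgeR, Oas1a rose by 2.10 ± 0.67 (adjusted p = 0.0254, 1.54 without siCONTROL replicate 1) after siKEAP1 and had estimates of 1.07 ± 0.68 (adjusted p = 0.219) and 1.14 ± 0.68 (adjusted p = 0.204) otherwise. The Oas1a call was lost without siCONTROL replicate 1 or siKEAP1 replicate 2 or 3 (adjusted p up to 0.0797). Oas2 read 0.0448, 3.04 and 2.75 CPM in the siCONTROL libraries, 3.02, 14.3 and 9.87 after siKEAP1, 2.51, 6.53 and 2.93 after siCCNF and 3.06, 6.99 and 4.17 after siKEAP1/siCCNF, with only 1 count in siCONTROL replicate 1. Here siKEAP1 replicate 1 fell within the siCONTROL range. It rose by 2.26 ± 0.78 (adjusted p = 0.0387, 1.65 without siCONTROL replicate 1) after siKEAP1 in edgeR and lost the call without siCONTROL replicate 1 or 3, siKEAP1 replicate 2 or 3 or siKEAP1/siCCNF replicate 3 (adjusted p up to 0.123).

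Oasl1, which lacks the enzyme activity and is known to hold back translation of Irf7, stood at 1.12, 3.31 and 3.80 CPM in the siCONTROL libraries, 4.09, 7.90 and 6.27 after siKEAP1, 1.82, 3.11 and 2.31 after siCCNF and 2.70, 3.54 and 3.30 after siKEAP1/siCCNF. The siKEAP1 libraries lay above siCONTROL and the siCCNF libraries within it. Oasl1 rose by 1.16 ± 0.36 (adjusted p = 0.02, 0.77 without siCONTROL replicate 1) after siKEAP1 in edgeR, with -0.19 ± 0.37 (adjusted p = 0.706) after siCCNF and 0.23 ± 0.37 (adjusted p = 0.651) after siKEAP1/siCCNF. That call was lost without siKEAP1 replicate 2 or 3 (adjusted p up to 0.0947). Oasl2, its neighbour, had the highest level of the family per length (4.43 ± 2.64 FPKM in siCONTROL) and estimates of 1.02 ± 0.49 (adjusted p = 0.124), 0.87 ± 0.49 (adjusted p = 0.168) and 0.79 ± 0.49 (adjusted p = 0.215) that did not pass in edgeR.

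**Figure D2:**
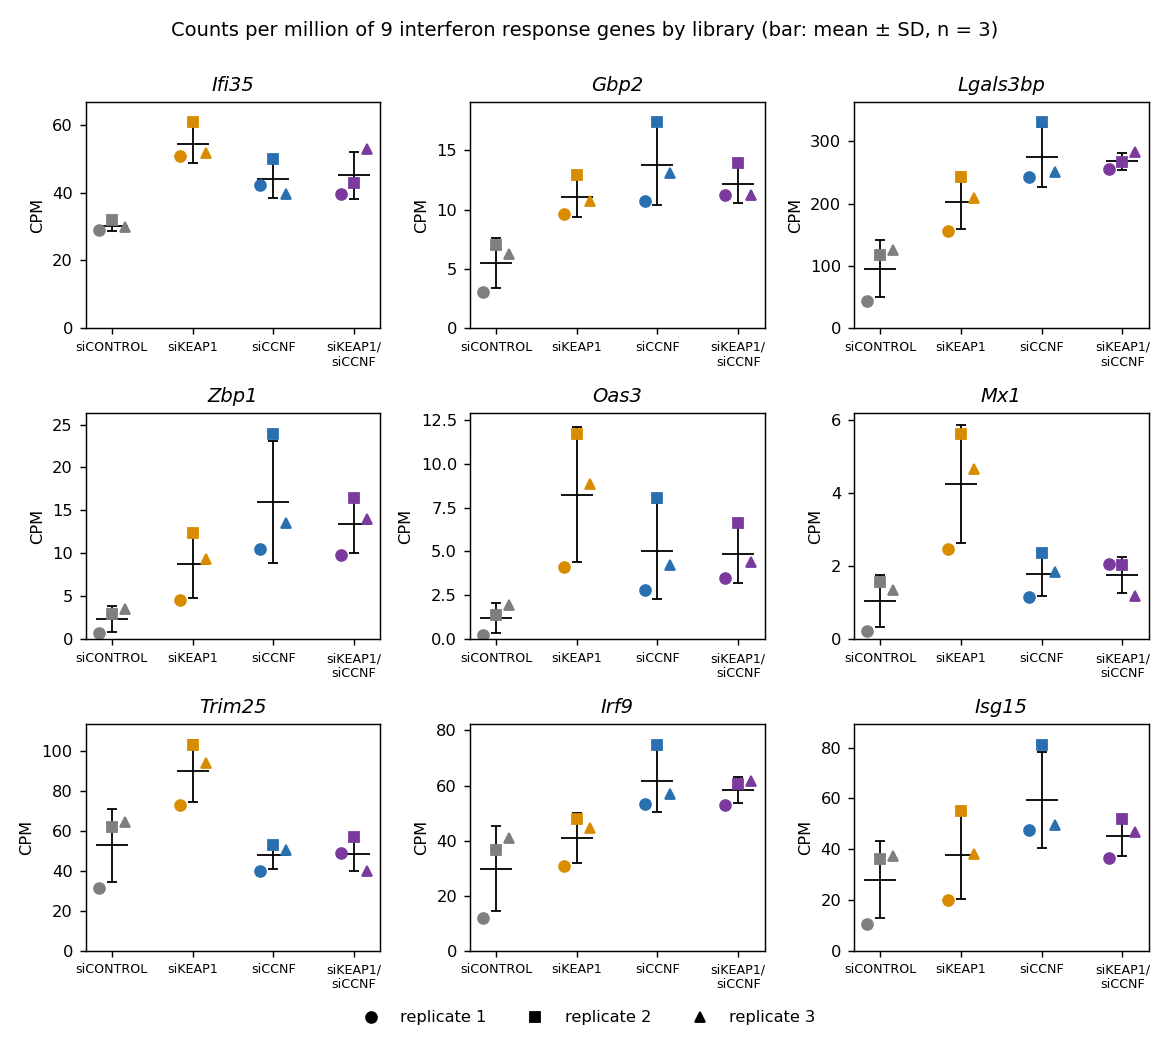
CPM of 9 members in each library, by group, on linear axes that start at 0; point shapes give the replicate and the bar the mean ± SD (n = 3). In each panel siCONTROL replicate 1 is the lowest point, Mx1 and Trim25 stand highest after siKEAP1, and Zbp1, Lgals3bp and Irf9 stand higher in both groups with siCCNF.

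Among the 12 other effectors, medians were 0.96, 1.32 and 1.14, with 5, 9 and 7 called, and 0.73, 0.92 and 0.73 with 5, 9 and 5 called when siCONTROL replicate 1 was left out. Mx1, a dynamin-like GTPase that blocks viral replication, stood at 0.224, 1.57 and 1.35 CPM in the siCONTROL libraries, 2.46, 5.63 and 4.65 after siKEAP1, 1.17, 2.37 and 1.85 after siCCNF and 2.06, 2.03 and 1.19 after siKEAP1/siCCNF. The siKEAP1 values were all above siCONTROL and above both other depletions. Mx1 rose by 2.05 ± 0.49 (adjusted p = 0.00488, 1.54 without siCONTROL replicate 1) after siKEAP1 in edgeR, in all 12 leave-one-out fits, and its other estimates were 0.79 ± 0.51 (adjusted p = 0.225) and 0.79 ± 0.52 (adjusted p = 0.241). Mx2, the adjacent paralogue, read 0.628, 4.45 and 5.97 CPM in the siCONTROL libraries, 3.62, 8.95 and 6.93 after siKEAP1, 7.78, 16.5 and 10.3 after siCCNF and 7.62, 11.6 and 9.09 after siKEAP1/siCCNF. Its siCCNF and siKEAP1/siCCNF libraries lay above siCONTROL and those of siKEAP1 overlapped it. Mx2 rose by 1.65 ± 0.55 (adjusted p = 0.0286, 1.12 without siCONTROL replicate 1) after siCCNF in edgeR, with 0.84 ± 0.57 (adjusted p = 0.273) after siKEAP1 and 1.38 ± 0.56 (adjusted p = 0.066) after siKEAP1/siCCNF. The Mx2 call was lost without siCONTROL replicate 2 or siCCNF replicate 2 (adjusted p up to 0.0803).

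Rsad2 encodes viperin, a radical SAM enzyme that makes a chain-terminating nucleotide. Its libraries read 0.538, 3.20 and 2.70 CPM in the siCONTROL libraries, 3.62, 11.3 and 8.86 after siKEAP1, 2.77, 6.07 and 3.78 after siCCNF and 4.33, 5.45 and 2.99 after siKEAP1/siCCNF. The siKEAP1 libraries lay above siCONTROL. By edgeR, Rsad2 rose by 1.92 ± 0.55 (adjusted p = 0.0151, 1.43 without siCONTROL replicate 1) after siKEAP1, a call lost without siKEAP1 replicate 2 (adjusted p up to 0.0582), and had estimates of 0.98 and 1.03 in the other contrasts. Cmpk2, the nucleotide kinase gene beside it on chromosome 12, had estimates of 1.51 ± 0.62 (adjusted p = 0.0749), 0.71 ± 0.63 (adjusted p = 0.378) and 0.66 ± 0.63 (adjusted p = 0.433) and passed in none.

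Lgals3bp, a secreted glycoprotein that binds galectins, was among the most abundant members per length. It read 43.6, 118 and 126 CPM in the siCONTROL libraries, 156, 242 and 209 after siKEAP1, 243, 330.3 and 250.1 after siCCNF and 255, 267 and 282 after siKEAP1/siCCNF. No library of any depletion fell into the siCONTROL range. In edgeR it rose by 1.08 ± 0.32 (adjusted p = 0.0182, 0.72 without siCONTROL replicate 1), 1.52 ± 0.32 (adjusted p = 0.00234, 1.17 without siCONTROL replicate 1) and 1.49 ± 0.32 (adjusted p = 0.00291, 1.13 without siCONTROL replicate 1), that is 2.87-fold after siCCNF. The siKEAP1 call was lost without siKEAP1 replicate 2 (adjusted p up to 0.0543), and the others held in all 12 leave-one-out fits. Gbp2 (chr3:142620602-142638008), a guanylate-binding GTPase of cell-autonomous defence, stood at 3.09, 7.05 and 6.26 CPM in the siCONTROL libraries, 9.61, 12.9 and 10.7 after siKEAP1, 10.7, 17.3 and 13.1 after siCCNF and 11.2, 13.9 and 11.2 after siKEAP1/siCCNF. The 9 depleted libraries were again all above the 3 of siCONTROL. Gbp2 rose by 1.03 ± 0.26 (adjusted p = 0.00635, 0.73 without siCONTROL replicate 1), 1.33 ± 0.25 (adjusted p = 0.000836, 1.04 without siCONTROL replicate 1) and 1.16 ± 0.26 (adjusted p = 0.00253, 0.86 without siCONTROL replicate 1) in edgeR, and these calls held in every leave-one-out fit.

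Ifi35, which encodes a leucine zipper protein of the response, had the tightest siCONTROL replicates of the members. It read 28.8, 31.9 and 30.0 CPM in the siCONTROL libraries, 50.7, 60.7 and 51.5 after siKEAP1, 42.3, 49.8 and 39.5 after siCCNF and 39.5, 43.0 and 52.7 after siKEAP1/siCCNF. The siCONTROL libraries had a coefficient of variation of 5.15%, and the siKEAP1 libraries had the highest mean. It rose by 0.85 ± 0.12 (adjusted p = 6.38e-05, 0.80 without siCONTROL replicate 1), 0.54 ± 0.12 (adjusted p = 0.00195, 0.50 without siCONTROL replicate 1) and 0.58 ± 0.12 (adjusted p = 0.00129, 0.53 without siCONTROL replicate 1) in edgeR, in all 12 leave-one-out fits. Ifi27, which encodes a small membrane protein, was the most abundant member per length and the next steadiest in siCONTROL, at 13.9%. Its libraries stood at 153, 195 and 198 CPM in the siCONTROL libraries, 173, 199.6 and 199 after siKEAP1, 254, 237 and 242 after siCCNF and 244, 215 and 278 after siKEAP1/siCCNF. Both siCCNF groups lay above siCONTROL and siKEAP1, which overlapped each other. By edgeR, Ifi27 rose by 0.42 ± 0.11 (adjusted p = 0.00579, 0.31 without siCONTROL replicate 1) after siCCNF and 0.43 ± 0.11 (adjusted p = 0.00545, 0.31 without siCONTROL replicate 1) after siKEAP1/siCCNF, in all 12 leave-one-out fits, with 0.066 ± 0.11 (adjusted p = 0.669) after siKEAP1.

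Bst2 encodes tetherin, which holds budding virus at the cell surface. It stood at 22.0, 50.5 and 53.5 CPM in the siCONTROL libraries, 51.7, 97.7 and 82.9 after siKEAP1, 84.8, 145 and 98.1 after siCCNF and 80.7, 106 and 107 after siKEAP1/siCCNF. The libraries with siCCNF were all above siCONTROL, and siKEAP1 replicate 1 lay within it. Bst2 rose by 1.38 ± 0.34 (adjusted p = 0.00561, 1.07 without siCONTROL replicate 1) and 1.23 ± 0.34 (adjusted p = 0.0118, 0.91 without siCONTROL replicate 1) in edgeR after siCCNF and siKEAP1/siCCNF, with 0.89 ± 0.34 (adjusted p = 0.0555) after siKEAP1. Only the siKEAP1/siCCNF call was lost, without siKEAP1/siCCNF replicate 3 (adjusted p up to 0.0503). Xaf1, which binds the apoptosis inhibitor XIAP, read 5.69, 16 and 21.1 CPM in the siCONTROL libraries, 11.1, 23.7 and 19.6 after siKEAP1, 28.3, 44.7 and 32.1 after siCCNF and 27.0, 33.8 and 31.1 after siKEAP1/siCCNF. It had the same order, with siKEAP1 mixed with siCONTROL. Xaf1 rose by 1.30 ± 0.39 (adjusted p = 0.0173, 0.91 without siCONTROL replicate 1) and 1.11 ± 0.39 (adjusted p = 0.0386, 0.72 without siCONTROL replicate 1) in edgeR, the former in all 12 leave-one-out fits, and the latter was lost without siCONTROL replicate 1 or 2, siKEAP1 replicate 3 or siKEAP1/siCCNF replicate 1, 2 or 3 (adjusted p up to 0.0971).

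Ifi44 was at 1.39, 13.3 and 13.1 CPM in the siCONTROL libraries, 15.1, 41.8 and 28.4 after siKEAP1, 24.1, 50.6 and 32.6 after siCCNF and 30.2, 44.6 and 25.6 after siKEAP1/siCCNF. All depleted libraries exceeded siCONTROL, though siKEAP1 replicate 1 did so narrowly. By edgeR it rose by 1.96 ± 0.61 (adjusted p = 0.021, 1.43 without siCONTROL replicate 1) after siCCNF and 1.88 ± 0.61 (adjusted p = 0.0279, 1.34 without siCONTROL replicate 1) after siKEAP1/siCCNF, and 1.64 ± 0.61 (adjusted p = 0.0536) after siKEAP1 missed the threshold. The calls were lost without siCCNF replicate 2 (adjusted p up to 0.0617) and without siCONTROL replicate 1 or siKEAP1/siCCNF replicate 1, 2 or 3 (adjusted p up to 0.0636), respectively. Rtp4, a chaperone of membrane receptors, read 3.59, 13.6 and 15.9 CPM in the siCONTROL libraries, 11.8, 25.1 and 18.7 after siKEAP1, 22.7, 37.1 and 25.0 after siCCNF and 18.7, 29.0 and 26.4 after siKEAP1/siCCNF. The siCCNF and siKEAP1/siCCNF libraries lay above siCONTROL. It rose by 1.36 ± 0.44 (adjusted p = 0.0244, 0.93 without siCONTROL replicate 1) after siCCNF in edgeR, a call lost without siCCNF replicate 2 (adjusted p up to 0.066), and had 1.17 ± 0.44 (adjusted p = 0.0503) after siKEAP1/siCCNF. Rtp4 overlaps Masp1 on the opposite strand, which reached 246 CPM, and Gm45338 on its own strand, so reads may be shared.

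Contrasts whose difference takes no siCONTROL library set the depletions against each other. After siKEAP1/siCCNF compared with siKEAP1, 1 member rose and 3 fell, beside 24.1% and 26.8% of all tested genes, with a median of -0.15 over the 36 and 0.00 over all genes; 5 members reached an unadjusted p below 0.05 in edgeR, as did 56.2% of all genes. The median changed sign, to 0.06, without siKEAP1 replicate 2. Ifi27 was higher by 0.37 ± 0.11 (adjusted p = 0.0125) in edgeR. Trim25 fell by 0.89 on the log2 scale (standard error 0.24, adjusted p = 0.00962 from edgeR), from 72.7, 103 and 93.6 to 48.6, 57.0 and 39.9 CPM, with no overlap. Oasl1 and Mx1 followed with -0.94 ± 0.35 (adjusted p = 0.0376) and -1.26 ± 0.45 (adjusted p = 0.0318) in edgeR, also with no overlap of the libraries. The Trim25 call held in all 12 leave-one-out fits. That of Ifi27 was lost without siKEAP1 replicate 1 or siKEAP1/siCCNF replicate 3 (adjusted p up to 0.0627), that of Oasl1 without siKEAP1 replicate 2 or 3, siCCNF replicate 3 or siKEAP1/siCCNF replicate 1, 2 or 3 (adjusted p up to 0.161), and that of Mx1 without siKEAP1 replicate 2 or 3 or siKEAP1/siCCNF replicate 1, 2 or 3 (adjusted p up to 0.131). Only 1 member fell without siKEAP1 replicate 2, siKEAP1 replicate 3, siKEAP1/siCCNF replicate 1 or siKEAP1/siCCNF replicate 2. Without siCONTROL replicate 1, which is in neither group of this contrast but takes part in the shared spread, the low-count filter, the scaling and the adjustment, 5 members were called higher and 3 lower. With all libraries, 24.1% of all genes were called higher and 26.8% lower, and no such share is given for the fit without siCONTROL replicate 1. In that fit of edgeR, Irf9 at 0.51 (adjusted p = 0.022), Ddx58 at 0.51 (adjusted p = 0.0371), Xaf1 at 0.75 (adjusted p = 0.036) and Lgals3bp at 0.41 (adjusted p = 0.0455) joined Ifi27 at 0.37 (adjusted p = 0.00152).

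After siKEAP1/siCCNF compared with siCCNF, 0 members were called in either direction, beside 3.05% higher and 2.23% lower among all genes. The median was -0.12 (0.09 without siCCNF replicate 2), 8 of 36 estimates were above 0, and 0 reached an unadjusted p below 0.05 in edgeR, against 18.4% of all genes. DESeq2 and limma called 0 as well, as did every other alternative run. A p that misses the threshold does not show that the groups are alike, and at the spread of these libraries the standard errors were wide: for Zbp1 the estimate was -0.24 with a standard error of 0.43, and for Isg15 -0.39 with 0.44.

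The interaction takes what siKEAP1 did on top of siCCNF and subtracts what it did in control cells. Its estimate was below 0 for all 36 members, with a median of -1.07 against 0.01 for all tested genes. By edgeR 0 members were called higher, also by DESeq2 and limma, and 5 were called lower, beside 10.6% and 10.5% of all genes, and 12 reached an unadjusted p below 0.05 (15.8% of all genes did so as lower). The count lower was 15 with the replicate block (9.91% of all genes) and 1 without the low-count filter (5.16%). The siCONTROL libraries enter this contrast with positive sign, so the low values of siCONTROL replicate 1 also bear on it, and without that library the median was -0.67 and 1 estimate was above 0. Keap1 itself had an interaction of 0.98 ± 0.11 (adjusted p = 5.78e-05) in edgeR, being less depleted with both siRNAs than with siKEAP1 alone, and the part of this in the members' values was not tested. Ifi35 had an interaction of -0.81 ± 0.16 (adjusted p = 0.0034, -0.77 without siCONTROL replicate 1) in edgeR and held in all 12 leave-one-out fits. siKEAP1 went with a rise of 0.85 in control cells and with a difference of 0.039 in CCNF-depleted cells. For Gbp2 the interaction was -1.20 ± 0.35 (adjusted p = 0.0278, -0.90 without siCONTROL replicate 1), from 1.03 in control cells to -0.17 in CCNF-depleted cells. Oas3 had -2.80 ± 0.79 (adjusted p = 0.027, -2.29 without siCONTROL replicate 1), Mx1 -2.05 ± 0.68 (adjusted p = 0.0491, -1.54 without siCONTROL replicate 1) and Zbp1 -2.14 ± 0.69 (adjusted p = 0.0492, -1.68 without siCONTROL replicate 1) in edgeR, where brackets again give the value without siCONTROL replicate 1.

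The calls of Gbp2, Oas3, Mx1 and Zbp1 depended on single libraries. That of Gbp2 was lost without siKEAP1 replicate 2 or 3, siCCNF replicate 2 or 3 or siKEAP1/siCCNF replicate 1 or 3 (adjusted p up to 0.0764). That of Oas3 was lost without siCONTROL replicate 1 or 2, siKEAP1 replicate 2 or 3, siCCNF replicate 2 or siKEAP1/siCCNF replicate 1 or 3 (adjusted p up to 0.0633). Mx1 lost its call without siCONTROL replicate 3, siKEAP1 replicate 2 or 3, siCCNF replicate 2 or 3 or siKEAP1/siCCNF replicate 1, 2 or 3 (adjusted p up to 0.122), and Zbp1 without siCONTROL replicate 1, 2 or 3, siKEAP1 replicate 2 or 3, siCCNF replicate 2 or 3 or siKEAP1/siCCNF replicate 1 or 3 (adjusted p up to 0.115). The count of members called lower was 1 without siKEAP1 replicate 2, siKEAP1 replicate 3, siCCNF replicate 2, siKEAP1/siCCNF replicate 1 or siKEAP1/siCCNF replicate 3, it was 2 without siCCNF replicate 3, 3 without siCONTROL replicate 2 or 3, and 4 without siCONTROL replicate 1. No share of all tested genes is given for these fits.

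**Figure D3:**
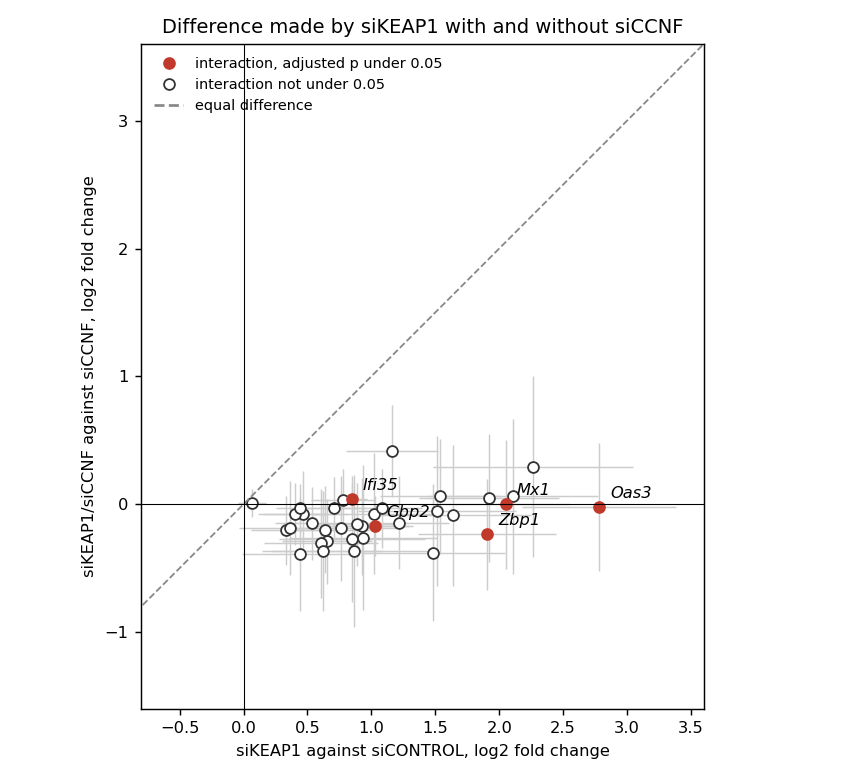
Effect of siKEAP1 on each member in control cells (horizontal axis, siKEAP1 against siCONTROL, log2) and in CCNF-depleted cells (vertical axis, siKEAP1/siCCNF against siCCNF, log2); grey bars are 1 standard error, filled points passed the test of the interaction and the dashed diagonal marks equal effects. All 36 points lie below the diagonal, and the filled points are Ifi35, Gbp2, Oas3, Mx1 and Zbp1.

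Levels of members differ by orders of magnitude per length. In siCONTROL, Ifi27 stood at 123 ± 17.1 FPKM (mean ± SD, n = 3), followed by Bst2 at 46.1 ± 19.1, Isg15 at 36.7 ± 19.9 and Lgals3bp at 33.4 ± 15.8. The SDs of Bst2, Isg15 and Lgals3bp exceeded the steps between them, so their order is not resolved. At the other end were Oas3, at the value given above, Mx1 at 0.275 ± 0.190 and Oas2 at 0.433 ± 0.368. Several members are neighbours in the genome: in the deposited coordinates, which match build GRCm38, Oas2, Oas3 and Oas1a lie within chr5:120730333-120907521, Oasl2 and Oasl1 within chr5:114896936-114937915, Parp14, Dtx3l and Parp9 within chr16:35832874-35972605, Mx1 and Mx2 within chr16:97447035-97560900, and Rsad2 and Cmpk2 within chr12:26442746-26479837. Neighbours did not always share their calls, as for Mx1 and Mx2 or Oasl1 and Oasl2, but the difference between neighbours was not tested.

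Other genes of the pathway were followed in a list of 46, of which 33 passed the filter. By edgeR, 18 rose and 2 fell after siKEAP1, 19 rose and 2 fell after siCCNF and 18 rose and 2 fell after siKEAP1/siCCNF, with medians of 0.42, 0.41 and 0.46. Of all tested genes, 20.2%, 22.4% and 20.6% were called higher and 20.2%, 25.4% and 23.6% lower in these contrasts. Without siCONTROL replicate 1, 14, 17 and 17 rose and 2, 3 and 2 fell. In that fit 19.7%, 22.3% and 20.8% of all tested genes were called higher, and no share called lower is given. Against siKEAP1, 10 rose and 5 fell with both siRNAs, beside 24.1% and 26.8% of all genes. Against siCCNF, 0 were called in edgeR, beside 3.05% higher and 2.23% lower among all genes, and 5 reached an unadjusted p below 0.05 (18.4% of all genes). The interaction was called higher for 1 and lower for 10, beside 10.6% and 10.5% of all genes. The ligands were nearly absent. Ifna1, Ifna2, Ifna4, Ifna5, Ifnk, Ifng, Ifnl2 and Ifnl3 had 0 counts in all 12 libraries, and Ifnb1, the interferon that most cell types make first, had at most 5 counts in a library and was not tested. Ifnb1 counts in replicates 1, 2 and 3 were 0, 0 and 0 in siCONTROL and 1, 0 and 0 after siKEAP1. After siCCNF they were 5, 0 and 3, and after siKEAP1/siCCNF 1, 2 and 1, too few to compare the groups.

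The receptor chains moved in different contrasts. Ifnar1 stood at 97.0, 109.7 and 112 CPM in the siCONTROL libraries, 63.0, 61.8 and 66.8 after siKEAP1, 119, 118 and 118 after siCCNF and 108, 97.9 and 94.1 after siKEAP1/siCCNF. The siKEAP1 libraries lay below all others. Ifnar1 fell by 0.73 after siKEAP1 on the log2 scale (standard error 0.072, adjusted p = 2.65e-06 from edgeR, -0.80 without siCONTROL replicate 1), while 0.16 ± 0.071 (adjusted p = 0.0805) after siCCNF and -0.086 ± 0.071 (adjusted p = 0.356) after siKEAP1/siCCNF did not pass. Ifnar2 read 28.4, 28.3 and 28.1 CPM in the siCONTROL libraries, 27.6, 29.9 and 29.0 after siKEAP1, 53.8, 54.1 and 49.8 after siCCNF and 51.5, 52.5 and 58.7 after siKEAP1/siCCNF. Here the siCONTROL and siKEAP1 libraries were alike in range, and both siCCNF groups stood above them. It rose by 0.89 ± 0.071 (adjusted p = 3.24e-07, 0.90 without siCONTROL replicate 1) after siCCNF and 0.94 ± 0.071 (adjusted p = 2.72e-07, 0.94 without siCONTROL replicate 1) after siKEAP1/siCCNF in edgeR. The receptor kinase Tyk2 rose by 0.86 ± 0.069 (adjusted p = 4.27e-07, 0.79 without siCONTROL replicate 1) after siKEAP1 in edgeR. After siCCNF and siKEAP1/siCCNF it fell, with estimates of -0.33 ± 0.069 (adjusted p = 0.00162, -0.38 without siCONTROL replicate 1) and -0.24 ± 0.07 (adjusted p = 0.0132, -0.30 without siCONTROL replicate 1) in edgeR. It stood at 42.8, 47.8 and 48.2 CPM in the siCONTROL libraries, 85.0, 82.4 and 83.8 after siKEAP1, 37.5, 34.6 and 38.6 after siCCNF and 40.3, 39.6 and 37.7 after siKEAP1/siCCNF, with no overlap between siCONTROL and any depletion.

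Of the factors, Irf1 stood at 48.1, 52.6 and 53.6 CPM in the siCONTROL libraries, 48.1, 56.3 and 54.6 after siKEAP1, 78.9, 83.4 and 77.4 after siCCNF and 74.8, 79.2 and 82.1 after siKEAP1/siCCNF. Its siCCNF and siKEAP1/siCCNF libraries lay well above the others. Irf1 rose by 0.64 ± 0.075 (adjusted p = 1.16e-05, 0.59 without siCONTROL replicate 1) and 0.61 ± 0.075 (adjusted p = 1.88e-05, 0.56 without siCONTROL replicate 1) in edgeR. Irf3, which switches on Ifnb1 once phosphorylated, was not called, with estimates of -0.30 ± 0.12 (adjusted p = 0.0654), -0.24 ± 0.12 (adjusted p = 0.111) and -0.26 ± 0.12 (adjusted p = 0.102).

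Upstream, Tmem173, which encodes STING, had tight replicates at 24.6, 25.2 and 24.4 CPM in the siCONTROL libraries, 64.6, 66.0 and 64.7 after siKEAP1, 52.5, 54.5 and 54.6 after siCCNF and 62.7, 56.4 and 70.7 after siKEAP1/siCCNF. All depleted libraries were more than 2-fold above siCONTROL. Tmem173 rose by 1.40 ± 0.079 (adjusted p = 1.60e-08, 1.38 without siCONTROL replicate 1), 1.12 ± 0.079 (adjusted p = 1.06e-07, 1.12 without siCONTROL replicate 1) and 1.35 ± 0.079 (adjusted p = 3.03e-08, 1.34 without siCONTROL replicate 1) in edgeR, with an interaction of -1.16 ± 0.11 (adjusted p = 1.22e-05, -1.16 without siCONTROL replicate 1). Mavs, the adaptor of RIG-I and MDA5 at mitochondria, rose by 0.56 ± 0.063 (adjusted p = 1.02e-05, 0.55 without siCONTROL replicate 1) after siKEAP1 in edgeR, from 28.3, 28.3 and 28.3 to 39.7, 42.5 and 42.9 CPM, and its siCCNF and siKEAP1/siCCNF estimates were 0.15 and 0.046. Socs1, which limits JAK signalling, rose by 0.75 ± 0.088 (adjusted p = 1.42e-05, 0.75 without siCONTROL replicate 1), 0.73 ± 0.087 (adjusted p = 1.35e-05, 0.74 without siCONTROL replicate 1) and 0.95 ± 0.088 (adjusted p = 1.44e-06, 0.96 without siCONTROL replicate 1) in edgeR. The calls of Ifnar1, Ifnar2, Tyk2, Irf1, Tmem173, Mavs and Socs1 given here held in all 12 leave-one-out fits.

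**Figure D4:**
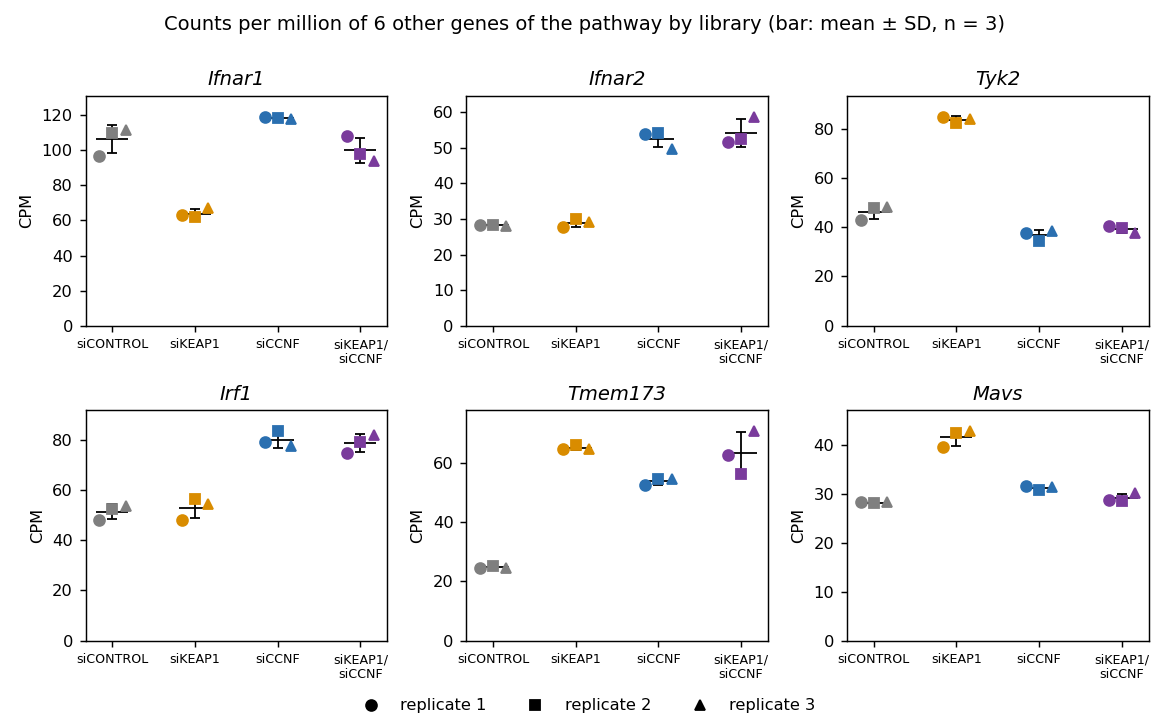
CPM of 6 other genes of the pathway in each library, by group, on linear axes that start at 0; point shapes give the replicate and the bar the mean ± SD (n = 3). Ifnar1 is lowest after siKEAP1, Ifnar2 and Irf1 are highest in both groups with siCCNF, Tyk2 is highest after siKEAP1, Tmem173 is lowest in siCONTROL, and Mavs is highest after siKEAP1.

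The label of the cells was checked against marker lists. The 6 myoblast markers summed to between 1483 and 1681 CPM in siCONTROL, 890.1 and 925 after siKEAP1, 746 and 762 after siCCNF, and 684 and 779 after siKEAP1/siCCNF. The 10 genes of differentiating myocytes summed to 57.9 to 137 CPM in siCONTROL, 3.90 to 4.74 after siKEAP1, 18 to 25.7 after siCCNF and 7.82 to 8.45 after siKEAP1/siCCNF, so each depleted group had lower sums of both lists than siCONTROL. The 3 markers of plasmacytoid and lymphoid cells summed to at most 0.403 CPM, and Cd3e was at 0 in all libraries. The 7 markers of macrophages and other blood cells summed to 13.2 to 17.1 CPM in siCONTROL, 29.2 to 34.9 after siKEAP1, 18 to 22.6 after siCCNF and 20.2 to 25.7 after siKEAP1/siCCNF, with Cd14 the highest of them in every library, followed by Cd68 after siKEAP1 and by Lyz2 in the other groups, while Itgam was at 0 in all libraries and Ptprc reached at most 0.122 CPM. The 3 endothelial markers summed to at most 1.38 CPM. The 3 fibroblast-like markers summed to 45.5 to 70.7 CPM in siCONTROL, 42.9 to 45.5 after siKEAP1, 165 to 169 after siCCNF and 122 to 149.7 after siKEAP1/siCCNF. Mitochondrially encoded genes took 2.16% to 3.83% of counts, with 2.16% to 2.24% in siCONTROL and 2.73% or more in each depleted library. The part of these differences in the member results was not tested, and in bulk RNA fewer cells of a type and less RNA per cell cannot be told apart.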

How the data were processed

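RNA of 12 C2C12 samples, 3 per group, was prepared as poly(A) libraries, sequenced and quantified by a service provider. The authors deposited 1 table of raw counts per gene and library, FPKM values made from them, gene coordinates, and columns of their own fold changes and p-values, which were not used. The submitters' processing notes name HISAT2 and GRCm39, whereas the coordinates of 53548 of 54495 gene IDs shared with the GRCm38 annotation, including all 36 members, are those of GRCm38. The counting tool and its strand setting are not given in the sources used here.

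Groups came from the sample labels. Counts were tested with edgeR 4.0.16 in R 4.3.3 (quasi-likelihood test, TMM scaling, filterByExpr, 1 mean per group over all 12 libraries), with Benjamini-Hochberg adjustment over 15122 genes, which hold 99.9% of counts. TMM factors ran from 0.971 to 1.02. CPM were computed here from the counts and edgeR's scaled library sizes, and levels between genes were compared on the deposited FPKM. With 18464209 to 37743198 counts per library, 1 member had 3 counts or fewer in a library. The samples are labelled as biological replicates of 1 line. The p-values set group differences against the spread between these replicates, estimated over all 4 groups. No pair of replicates differed by as little as sampling noise. The statistics were tested on simulated counts.

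Members, role groups, pathway genes and marker lists were chosen with earlier results of these data known. Every member is named by role group. Values in each library are given for members called in at least 1 contrast against siCONTROL or in the interaction (24 members), and for a few others chosen after their values were seen (Isg15, Ifit1, and in part Usp18 and Ifit2). Of the other pathway genes, Ifnb1, Ifnar1, Ifnar2, Irf1 and Irf3 are named whatever they show, beside up to 12 called genes, and 1 tested gene of that list is not reported here by name. Alternatives were total library sizes, DESeq2 1.42.0, limma 3.58.1 on log2(FPKM + 1) and log2(FPKM + 0.1), no filter, at least 10 counts in every library, a replicate block, a length trend removed by a spline of 5 df, 2 groups only, an adjusted p under 0.01, a change over 2-fold, and leaving out each library.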

Additional observations from a re-analysis of the deposited data

Results flagged for a closer look

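For 5 of the 36 members, edgeR's test of the interaction called the siKEAP1 change on top of siCCNF different from that in control cells. The 5 were called lower, beside 10.5% of all tested genes called lower and 10.6% higher. The count alone does not set the members apart from other genes. The log2 differences were -0.8073 for Ifi35 (adjusted p = 0.0034 from edgeR), -1.201 for Gbp2 (adjusted p = 0.0278), -2.803 for Oas3 (adjusted p = 0.027), -2.051 for Mx1 (adjusted p = 0.0491) and -2.142 for Zbp1 (adjusted p = 0.0492). Each of the 5 was higher than siCONTROL in all 3 libraries after siKEAP1, and siKEAP1/siCCNF overlapped siCCNF. Over the 12 leave-one-out fits the estimates stayed between -0.93 and -0.71 for Ifi35, between -1.42 and -0.90 for Gbp2, between -3.38 and -2.29 for Oas3, between -2.45 and -1.54 for Mx1 and between -2.56 and -1.68 for Zbp1, and the call passed in all 12 for Ifi35, in 6 for Gbp2, in 5 for Oas3, in 4 for Mx1 and in 3 for Zbp1. Without siCONTROL replicate 1 the values were -0.77, -0.90, -2.29, -1.54 and -1.68, with adjusted p in edgeR of 0.00509, 0.0227, 0.062, 0.0461 and 0.115. That fit kept replicate 1 of the depleted groups, which also had the lowest member mean of its group. The shift between the fits is therefore not the part of siCONTROL replicate 1 alone.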

How the results depend on the processing

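The medians against siCONTROL and of the interaction kept their sign under every alternative run. The median of siKEAP1/siCCNF against siKEAP1 (-0.15) was 0.06 without siKEAP1 replicate 2 and 0.019 with a replicate block and the length trend removed, and that against siCCNF (-0.12) was 0.09 without siCCNF replicate 2. The calls against siKEAP1, 1 higher and 3 lower, were 5 higher and 3 lower without siCONTROL replicate 1. Of the results for single members, 4562 values kept their side of the threshold, 183 lost it and 163 gained it. The count of members called higher after siKEAP1 (14) was 4 without the low-count filter, 25 with a replicate block, 24 with a block and the length trend removed, 7 with siCONTROL replicate 1 left out and the length trend removed (an alternative chosen after seeing the data) and 4 at an adjusted p under 0.01. The siCCNF count (16) was 7, 27, 26 and 7 without the filter, with the block, with block and length, and at 0.01. The siKEAP1/siCCNF count (13) was 5, 25, 22 and 5 under the same settings and 8 with siCONTROL replicate 1 left out and length removed. Under that last setting, 18.2% of all genes were called higher after siKEAP1 and 24.8% after siKEAP1/siCCNF. For siKEAP1/siCCNF against siKEAP1, the count higher (1) was 4 with the block and 6 with block and length. It was 5 with only the 2 groups, 6 without siCONTROL replicate 1 and length, and 0 over 2-fold or at 0.01. Of all tested genes, 23.7%, 4834 of 15122, 25.6%, 34.5%, 5.3% and 17.4% were called higher under these settings, in that order. The count lower (3) was 5 with the block and 5 with block and length. It was 1 without the filter, by limma on log2(FPKM + 0.1), over 2-fold and at 0.01. Of all tested genes, 26.3%, 3633 of 15122, 13.9%, 4084 of 15122, 9.15% and 3178 of 15122 were called lower there, in that order. The interaction count lower (5) was 3 with total library sizes and with at least 10 counts in every library. It was also 3 by limma on log2(FPKM + 0.1) and with siCONTROL replicate 1 left out and length removed. Under these settings 9.87%, 11.6%, 1665 of 15122 and 10.5% of all tested genes were called lower, in that order. The interaction count was 1 without the filter and at 0.01, beside 5.16% and 5.88% of all tested genes. It was 15 with the block and 14 with block and length. Among all tested genes, the shares called higher against siCONTROL after siKEAP1, siCCNF and siKEAP1/siCCNF were 10.3%, 11.4% and 10.3% without the filter, 3024 of the 15122 genes, 22.1% and 20.2% with the block, 18.7%, 25.6% and 23.8% with block and length, and 14.9%, 15.6% and 14.3% at 0.01, and the share called lower in the interaction was 9.91% with the block and 10.4% with block and length. Without the filter 28084 genes were tested; the cause of the other shifts was not tested.

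Over all tested genes, deviations of same-numbered libraries from their group means correlated between -0.268 and 0.204, with 4 of 18 pairs above 0.1. Among siCONTROL, siKEAP1 and siCCNF, every same-numbered pair had a positive correlation, from 0.0035 to 0.204. The negative values all involved siKEAP1/siCCNF. These correlations do not settle whether replicate numbers pair the samples. Among the members themselves, the numbers did go together: replicate 1 had the lowest mean log2 CPM of its group in all 4 groups, being lowest for 36, 36, 32 and 20 members in siCONTROL, siKEAP1, siCCNF and siKEAP1/siCCNF, and replicate 2 was highest in the 3 depleted groups, for 34, 35 and 30 members. The labels number the biological replicates without tying a number to a day or batch, and the part of this shared order in the larger counts under the replicate block was not tested.

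Leaving out 1 library at a time, counts called higher ran from 5 to 19 after siKEAP1, 9 to 19 after siCCNF, 7 to 16 after siKEAP1/siCCNF and 0 to 5 for siKEAP1/siCCNF against siKEAP1, and counts called lower from 1 to 4 in that contrast and 1 to 6 for the interaction. No range of the share of all tested genes is given beside these. They therefore show the spread of the counts and do not compare the members with other genes. Counts lower against siCONTROL, both counts against siCCNF and the interaction count higher were 0 throughout. Medians ran from 0.50 to 1.19, 0.50 to 1.21, 0.39 to 1.08, -0.32 to 0.06, -0.31 to 0.09 and -1.33 to -0.67 for siKEAP1, siCCNF and siKEAP1/siCCNF against siCONTROL, siKEAP1/siCCNF against siKEAP1 and against siCCNF, and the interaction. Depth limits Oas2, Oas1a, Oas3 and Mx1, whose siCONTROL replicate 1 values rest on few counts.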
